A study of Mus musculus with 18 samples.

Results

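The genes described here are those of the cytosolic ribosomal proteins, the proteins that together with ribosomal RNA make up the large and the small subunit of the cytoplasmic ribosome. They were chosen by name: Rpl or Rps followed by digits and at most 1 letter, or Rplp0, Rplp1, Rplp2 or Rpsa, with pseudogenes and the Rps6k kinases left out. The rule took 77 of the 18218 genes in the authors' deposited comparison tables, 45 of the large and 32 of the small subunit. All 77 were found by identifier among the 37991 genes of the count files, and all 77 passed the filter on low counts that left 11153 genes to test. The cells were cryopreserved primary hepatocytes of male CD-1 mice, thawed for plating, from which total RNA was sequenced in 18 libraries.

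The 6 groups had 3 libraries each. Cells received an siRNA against Ttr, the gene of the plasma carrier transthyretin (siRNA); a REVERSIR of scrambled sequence (scrambled REVERSIR); a REVERSIR directed at that siRNA (TTR REVERSIR); the siRNA together with the scrambled one (siRNA + scrambled REVERSIR); the siRNA together with the one directed at it (siRNA + TTR REVERSIR); or PBS alone. A REVERSIR is a short oligonucleotide that pairs with the guide strand of an siRNA and blocks it. Nothing in the labels ties the 3 libraries of a group to separate cultures, wells or mice, so that p-values measure the spread between these libraries, which may be technical. The labels state no dose and no time. Total counts ran from 1755819 in a scrambled REVERSIR library to 10145265 in a siRNA + scrambled REVERSIR library. Levels are given as CPM, the counts of a gene relative to the effective library size, with scaling by the trimmed mean of M values (TMM). Ttr was at 221 to 254 CPM in siRNA libraries, 1064 to 1154 CPM in scrambled REVERSIR libraries, 1083 to 1357 CPM in TTR REVERSIR libraries, 225 to 227 CPM in siRNA + scrambled REVERSIR libraries and 978 to 1182 CPM in siRNA + TTR REVERSIR libraries, against 1034 to 1220 CPM in PBS libraries. The 10 hepatocyte markers summed to 47640 to 61120 CPM. The marker names listed for Kupffer cells and macrophages gave 11 matches, of which 4 passed the filter on low counts. These matches summed to 278 to 386 CPM. Adgre1 and Emr1 are names of the same gene and both were matched. That gene is thus counted more than once in the sum, which is too high.

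Ribosomal protein mRNAs are among the most abundant of any growing or secreting cell, and the proteins are needed in equal amounts, since each enters the ribosome as a single copy apart from the stalk proteins. Their mRNAs start with a C followed by an unbroken run of pyrimidines, the terminal oligopyrimidine (TOP) tract, through which mTOR and LARP1 control their translation. In the hepatocyte, which exports large amounts of plasma protein, ribosome supply follows feeding and growth signals. Most mammalian ribosomal protein genes have many processed pseudogenes, and their introns often hold small nucleolar RNAs.

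RefSeq start sites on the mouse build GRCm38.p6 were available for 56 of the 77 genes, each with 250 bases before and 50 after the start. A C followed by 4 bases that are each C or T stood exactly at an annotated start of 13 of the 56 genes (23.2%), against 3.01% of 27025 genes in the same table. With 7 such bases after the C, and the C allowed within 20 bases of the start, 31 of the 56 genes (55.4%) had a tract, against 16.4% of all genes. CCGGAAG, the core of a site for Ets family factors such as GABP, was found on either strand in the windows of 24 genes (42.9%), against 9.93% of all genes. AAGATGGC, the core of a YY1 site, was found on either strand in 5 genes (8.93%), against 3.19% of all, and TATAAA on the strand of the gene in 5 genes (8.93%), against 9.77% of all. A gene with more than 1 start counted once, and these matches describe the letters in the windows, not binding or use. The sequences below run from 30 bases before to 30 bases from the start onward. Starts with a clear tract come first, and then those of genes that passed a test against PBS and have an entry; capitals mark the unbroken run of C and T that begins at the start.

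Rpl15, chr14:18270957-18271016, minus strand: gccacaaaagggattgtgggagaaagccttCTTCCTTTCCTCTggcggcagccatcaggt
Rps10, chr17:27635215-27635274, minus strand: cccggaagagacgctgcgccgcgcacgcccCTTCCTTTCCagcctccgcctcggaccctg
Rps18, chr17:33955636-33955695, minus strand: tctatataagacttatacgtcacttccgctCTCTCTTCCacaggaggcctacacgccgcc
Rps6, chr4:86857338-86857397, minus strand: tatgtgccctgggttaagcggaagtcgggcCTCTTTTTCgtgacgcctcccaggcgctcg
Rpl38, chr11:114668550-114668609, plus strand: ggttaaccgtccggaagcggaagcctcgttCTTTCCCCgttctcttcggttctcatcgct
Rps15a, chr7:118116118-118116177, minus strand: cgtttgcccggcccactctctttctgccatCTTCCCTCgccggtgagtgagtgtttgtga
Rps21, chr2:180257349-180257408, plus strand: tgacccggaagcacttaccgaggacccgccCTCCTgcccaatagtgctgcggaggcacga
Rpl35a, chr16:33056452-33056511, plus strand: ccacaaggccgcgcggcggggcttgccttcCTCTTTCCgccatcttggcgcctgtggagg
Rpl27, chr11:101442215-101442274, plus strand: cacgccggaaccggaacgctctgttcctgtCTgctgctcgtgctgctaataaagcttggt
Rps9, chr7:3704011-3704070, plus strand: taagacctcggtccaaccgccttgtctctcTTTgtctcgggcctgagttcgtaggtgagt
Rpl39, chrX:37085193-37085252, minus strand: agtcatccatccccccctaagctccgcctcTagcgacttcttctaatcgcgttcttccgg
Rps19, chr7:24884562-24884621, plus strand: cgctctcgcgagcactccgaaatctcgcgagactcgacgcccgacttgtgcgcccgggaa
Rpl18, chr7:45718041-45718100, plus strand: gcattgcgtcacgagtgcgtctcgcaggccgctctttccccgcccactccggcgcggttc
Rpl41, chr10:128549139-128549198, minus strand: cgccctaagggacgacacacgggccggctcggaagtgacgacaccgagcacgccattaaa

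In these lines the tracts of Rpl15, Rps10, Rps18, Rps6, Rpl38, Rps15a, Rps21, Rpl35a and Rpl27 begin with C, while Rps9 and Rpl39 begin with T, and Rps19, Rpl18 and Rpl41 have neither letter at the annotated start. Rps21, Rpl35a and Rps19 have further annotated starts: the line with the longest tract is shown for Rps21 and Rpl35a, and the first of 3, none with a tract, for Rps19. The genes that passed a test against PBS thus include starts with and without a tract at the annotated base.

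Levels per length differed widely among the genes. Exon length was known for 76 of them, all but Rpl41, and the mean over 18 libraries ran from 8.08 to 1363 CPM per kb of exon, with a median of 246. The highest per kb were Rps12 (1363), Rps27 (859), Rpl17 (832), Rplp1 (825), Rpl4 (789.6) and Rpl32 (746). The lowest were Rps4l (8.08), Rpl29 (33.7), Rpl18 (55.6), Rpl35a (55.8), Rps18 (69.3) and Rps19 (71.3). Exon length counts every annotated exon of a gene, from 345 to 6262 bases, so that genes with long alternative exons such as Rpl18 and Rps19 stand low on this scale. Rps12 stood apart from the gene after it: its range over libraries, 557 to 781 CPM on 517 bases, did not reach the range of Rps27, 244 to 347 CPM on 345 bases, when both are set per kb in the plot of levels. From Rps27 to Rpl32 the ranges of neighbours overlapped. Rps4l, a paralogue of the X-linked Rps4x, was at 3.37 to 12.6 CPM, against 792 to 984 CPM for Rps4x.

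**Figure D1:**
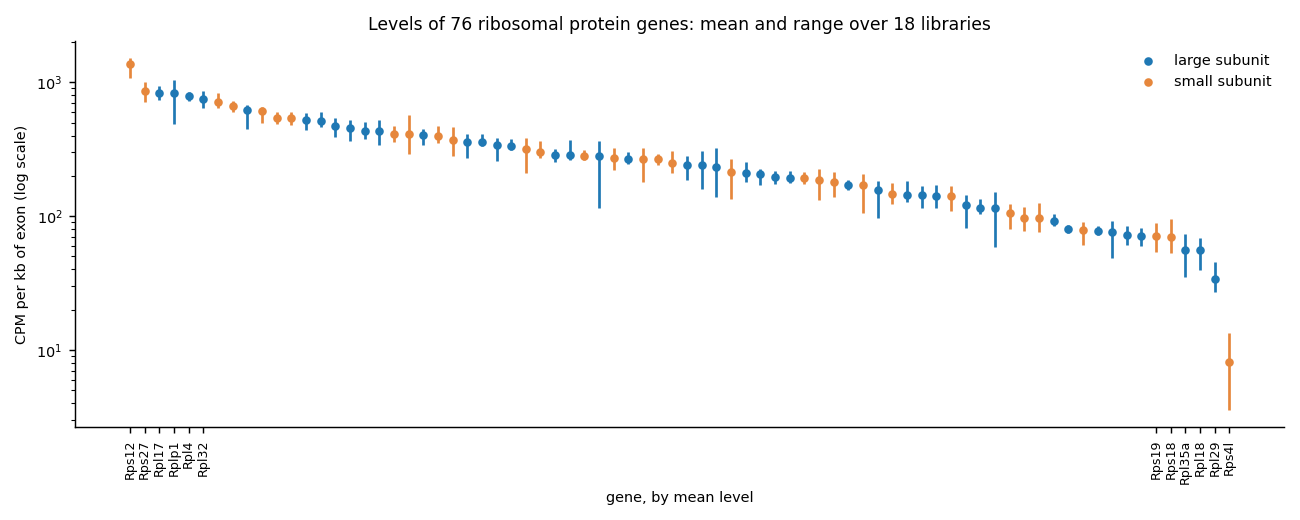
Level of each of the 76 ribosomal protein genes with a known exon length, on a log axis of CPM per kb of exon, in order of the mean, with the 6 highest and 6 lowest named; points are means over 18 libraries, lines run from the lowest to the highest library, and colours mark the subunit. Both subunits are spread over the whole order, from Rps12 at 1363 to Rps4l at 8.08.

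Among the genes of special structure, the stalk genes Rplp0, Rplp1 and Rplp2 encode the acidic proteins that recruit translation factors. Rplp0 averaged 457, Rplp1 825 and Rplp2 115 CPM per kb of exon. Without regard to length they averaged 759, 408.5 and 238 CPM. Annotated exon is 495 bases in Rplp1 and 2072 in Rplp2, which widens the gap between them on the per-kb scale. Rpsa, the small subunit protein also known as the laminin receptor precursor, had the highest mean of all in CPM, 1126. Rps6, the substrate of the S6 kinases downstream of mTOR, was at 429 to 518 CPM in the 16 libraries other than PBS replicates 1 and 2, and at 576 and 522 CPM in those. Rps27 and its p53-inducible paralogue Rps27l are both in the set, at 859 and 267 CPM per kb of exon. The symbols of the tissue-restricted paralogues Rpl3l, Rpl10l and Rpl39l fit the form of the rule, but no row of the comparison tables used here carries them, so that they are outside the set. They had 1, 0 and 1 reads over the 18 libraries.

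The name rule leaves out some genes of the ribosome. A row with the symbol Zbtb11 in the authors' deposited tables carries the identifier that the annotation gives to Rpl24, and it ran from 312 to 444 CPM. The gene Rps3a is listed there as Rps3a1 and ran from 552 to 704 CPM. Gnb2l1, which encodes the small subunit protein RACK1, ran from 858 to 1158 CPM, and Fau, which encodes eS30 as a fusion, from 77.0 to 159 CPM.

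Counting is uncertain for many of these genes, because their sequence recurs in the genome. Of the longest coding transcripts of 76 genes, 40 had over 50% of their 50-base stretches elsewhere in the genome of the authors' build NCBIM37, on either strand, and 71 had over 10%. The median was 50.9%. The share was 99.7% for Rps27, 98.1% for Rps12 and 94.7% for Rps6. How reads with several matches were counted is not known here. The spans of 29 genes held 57 annotated small nucleolar RNA genes, 15 genes overlapped a gene on the other strand, and 51 had an annotated pseudogene named after them.

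The 77 genes took 2.89% to 3.602% of all counts in 16 libraries. The exceptions were PBS replicates 1 and 2, with 2.10% and 2.09%. The 95% Wilson intervals ran from 2.94% to 2.99% in the shallowest library, around a share of 2.97%, and cover counting error only. The means ± SD (n = 3) were 3.21% ± 0.111 in siRNA, 3.07% ± 0.164 in scrambled REVERSIR, 3.22% ± 0.316 in TTR REVERSIR, 3.15% ± 0.195 in siRNA + scrambled REVERSIR and 3.27% ± 0.290 in siRNA + TTR REVERSIR, against 2.44% ± 0.597 in PBS. In siRNA against PBS the libraries did not overlap (two-sided exact permutation p = 0.1, the smallest that 3 against 3 allow; 0.55 after adjustment over 11 comparisons). The other 4 comparisons with PBS had exact permutation p from 0.2 to 0.3, and none of the 6 comparisons without PBS was under 0.7. PBS replicates 1 and 2 also had 24.3% and 24.1% of their counts in the 2 mitochondrial ribosomal RNA genes, against 1.69% to 9.56% in the other 16 libraries. With those 2 genes out of the total, the ribosomal protein genes took 2.78% and 2.75% in these PBS libraries and 3.10% to 3.68% in the other 16, and the siRNA and PBS libraries overlapped (exact permutation p = 0.2). Fewer cells of a type and less RNA per cell cannot be told apart in such bulk samples. The ratio of large to small subunit CPM kept between 1.47 and 1.54 in all 18 libraries.

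**Figure D2:**
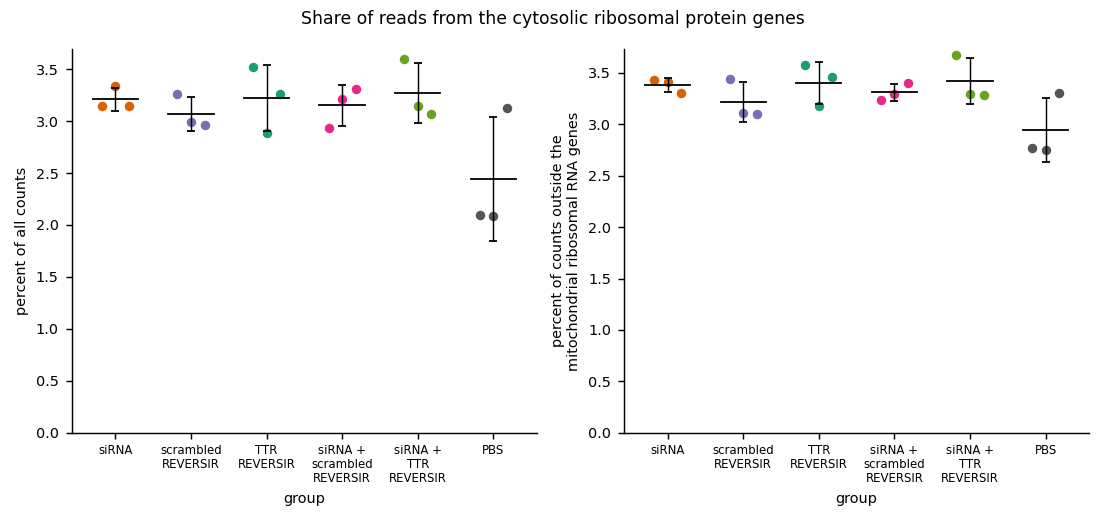
Percent of all counts (left) and of counts outside the 2 mitochondrial ribosomal RNA genes (right) that the 77 ribosomal protein genes took in each library; points are libraries, lines the group mean and bars the SD (n = 3). PBS replicates 1 and 2 are the lowest of all 18 libraries on both scales, at 2.10% and 2.09% on the left, and PBS replicate 3 lies at 3.13% among the treated libraries.

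The median SD of log2 CPM around the group means was 0.13 for the 77 genes, against 0.17 for all 11153 genes tested. The 77 genes had a median level of 335 CPM, and all genes were not matched to them for level, on which this SD depends. The difference is thus not shown to be a trait of the family. Rpl21, Rpl30 and Rpl17 were among the 4 with the lowest spread, with SDs from 0.05 to 0.06. Rpl21 was at 245 to 286 CPM over all 18 libraries. Rps4l, Rpl36, Rplp2 and Rplp1 had the highest, with SDs of 0.49, 0.44, 0.44 and 0.29. Rpl36, a short large subunit protein gene, had 121, 119 and 114 CPM in siRNA, 131, 98.1 and 46.1 in scrambled REVERSIR, 122, 98.7 and 87.4 in TTR REVERSIR, 134, 146 and 146 in siRNA + scrambled REVERSIR and 116, 146 and 145 in siRNA + TTR REVERSIR, against 49.8, 88.3 and 128 in PBS. The values in scrambled REVERSIR replicate 3, the shallowest library, and in PBS replicate 1 were less than any other. Rplp2 was likewise lowest in scrambled REVERSIR replicate 3 (134 CPM) and PBS replicate 1 (121 CPM) and reached 314 CPM in siRNA + TTR REVERSIR. Rplp1 was lowest in the same pair of libraries, at 242 and 270.4 CPM, and reached 515 CPM in scrambled REVERSIR replicate 1. In both genes replicates of 1 group stood far apart. Without PBS replicates 1 and 2, the SDs of Rpl36, Rplp2 and Rplp1 were 0.38, 0.38 and 0.28.

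Much of the family had its extreme values in PBS replicates 1 and 2. In 29 of the 77 genes (37.7%) both lay below every one of the other 16 libraries, which was so for 6.30% of all genes tested, and in 8 genes (10.4%) both lay above, against 7.07% of all genes. The 29 genes included 17 of the large and 12 of the small subunit, among them Rplp0, Rpsa, Rpl4 and Rps12. The 8 included Rpl10a, Rpl31, Rpl41, Rpl7a, Rps24, Rps26 and Rps6. The median deviation of the 77 genes from their own mean over libraries was −0.14 (log2) in both PBS libraries and lay between −0.08 and 0.16 in the other 16. This division of the libraries came from the share of mitochondrial ribosomal RNA. Its part in the results against PBS was not tested, but log2 fold changes against PBS are given with and without the 2 libraries. Without them the PBS group is a single library.

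**Figure D3:**
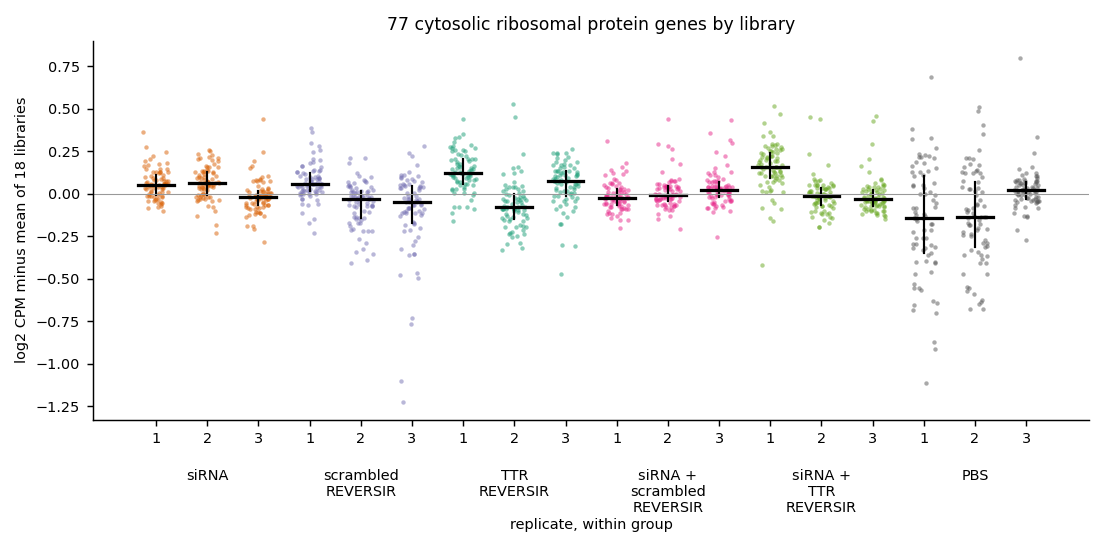
Log2 CPM of each of the 77 genes minus its mean over the 18 libraries, by library; each point is a gene, the horizontal line is the median and the vertical line the interquartile range. The medians of PBS replicates 1 and 2 are at −0.14, with points spread over a wide range, while PBS replicate 3 (0.02) lies among the treated libraries.

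Each treatment was compared with PBS over all genes by edgeR's quasi-likelihood test, with Benjamini-Hochberg adjustment over 11153 genes. The 5 comparisons share the same 3 PBS libraries, so that they are not independent of each other. In siRNA, 7 ribosomal protein genes passed an adjusted p of 0.05, 6 higher and 1 lower, against 2.62% of all genes (1.01% higher, 1.6% lower). In scrambled REVERSIR 1 passed, lower, against 0.421% of all genes (0.117% higher, 0.305% lower). In TTR REVERSIR 2 passed, both higher, against 0.699% (0.341% higher, 0.359% lower). In siRNA + scrambled REVERSIR 1 passed, lower, against 0.61% (0.206% higher, 0.403% lower), and in siRNA + TTR REVERSIR 5 passed, 4 higher and 1 lower, against 0.789% (0.35% higher, 0.439% lower). At an unadjusted p under 0.05 there were 32, 32, 31, 38 and 40 of the 77 in the same order, between 40.3% and 52.0% of them, against 20.1%, 14.7%, 16.4%, 17.7% and 17.7% of all genes. With PBS replicates 1 and 2 left out, none of the 77 passed in any of the 5 comparisons by edgeR, and the counts at an unadjusted p under 0.05 were 0, 3, 3, 3 and 3. Over all genes, 0.00868%, 0.0%, 0.0%, 0.00868% and 0.0% of the 11525 genes then tested passed, and 4.9%, 4.5%, 4.94%, 4.27% and 4.08% had an unadjusted p under 0.05.

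The small subunit genes that passed were all higher. Rps9, which encodes a protein of the small subunit body known for its part in decoding accuracy, had 494, 499.8 and 449.7 CPM in siRNA and 519, 399 and 466 CPM in TTR REVERSIR, against 264, 271 and 427 CPM in PBS. The log2 fold change in siRNA against PBS was 0.59 ± 0.13 (SE), adjusted p = 0.0203 by edgeR, and 0.18 without PBS replicates 1 and 2. Against PBS, Rps9 was at a log2 fold change of 0.53 ± 0.13 (SE) in TTR REVERSIR (adjusted p = 0.0472, edgeR), and of 0.12 once PBS replicates 1 and 2 were left out. Its PBS values in replicates 1 and 2 lay below all other libraries, which ran from 399 to 519 CPM, while PBS replicate 3 fell inside that range. Rps19, mutated in human Diamond-Blackfan anaemia, had 381, 394 and 328 CPM in siRNA, against 252, 257 and 315 CPM in PBS. The log2 fold change in siRNA against PBS was 0.42 ± 0.11 (SE), adjusted p = 0.044 by edgeR, and 0.23 without PBS replicates 1 and 2. The siRNA and PBS libraries did not overlap.

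Rps29, a zinc-binding protein of the small subunit head, had 205, 211 and 203 CPM in siRNA, against 124, 131 and 185 CPM in PBS. Against PBS, Rps29 was at a log2 fold change of 0.49 ± 0.13 (SE) in siRNA (adjusted p = 0.044, edgeR), and of 0.16 once PBS replicates 1 and 2 were left out. Rps29 was also low in scrambled REVERSIR replicates 2 and 3, at 149 and 132 CPM, against 216 CPM in replicate 1. Rps15a, a small subunit protein, had 566, 506 and 511 CPM in siRNA + TTR REVERSIR, against 384, 381 and 496 CPM in PBS. Rps15a thus differed by 0.33 ± 0.08 (SE) on the log2 scale between siRNA + TTR REVERSIR and PBS (adjusted p = 0.0479, edgeR), a value of 0.10 without PBS replicates 1 and 2. It was the one with the smallest fold change of the genes that passed, at 472 to 566 CPM in the 16 libraries other than PBS replicates 1 and 2. Rps21, a short small subunit protein, had 216, 185 and 181 CPM in siRNA + TTR REVERSIR, against 108, 111 and 174 CPM in PBS. The log2 fold change in siRNA + TTR REVERSIR against PBS was 0.58 ± 0.14 (SE), adjusted p = 0.0493 by edgeR, and 0.17 without PBS replicates 1 and 2. In both genes the siRNA + TTR REVERSIR and PBS libraries did not overlap.

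Among the large subunit genes, Rpl27, Rpl18, Rpl35a and Rpl39 were higher in at least 1 comparison. Rpl27, a large subunit protein, had 259.6, 279 and 229 CPM in siRNA and 279.9, 250.1 and 273 CPM in TTR REVERSIR, against 154, 149 and 247 CPM in PBS. Against PBS, Rpl27 was at a log2 fold change of 0.48 ± 0.12 (SE) in siRNA (adjusted p = 0.0391, edgeR), and of 0.06 once PBS replicates 1 and 2 were left out. Rpl27 thus differed by 0.56 ± 0.13 (SE) on the log2 scale between TTR REVERSIR and PBS (adjusted p = 0.041, edgeR), a value of 0.13 without PBS replicates 1 and 2. The TTR REVERSIR libraries lay above all PBS libraries, the siRNA libraries did not. Rpl18, a large subunit protein whose gene overlaps Sphk2 on the other strand, had 269, 257 and 220.4 CPM in siRNA, against 160.1, 170.5 and 216 CPM in PBS. The log2 fold change in siRNA against PBS was 0.45 ± 0.12 (SE), adjusted p = 0.0449 by edgeR, and 0.21 without PBS replicates 1 and 2. Rpl35a, mutated in human Diamond-Blackfan anaemia, had 259, 192 and 199 CPM in siRNA + TTR REVERSIR, against 134, 124 and 188 CPM in PBS. Against PBS, Rpl35a was at a log2 fold change of 0.55 ± 0.13 (SE) in siRNA + TTR REVERSIR (adjusted p = 0.0449, edgeR), and of 0.21 once PBS replicates 1 and 2 were left out. Rpl39, a very short protein that lines the exit tunnel of the ribosome, had 464, 325 and 335 CPM in siRNA + TTR REVERSIR, against 199.7, 203 and 307 CPM in PBS. Rpl39 thus differed by 0.67 ± 0.15 (SE) on the log2 scale between siRNA + TTR REVERSIR and PBS (adjusted p = 0.0415, edgeR), a value of 0.30 without PBS replicates 1 and 2. In Rpl35a and Rpl39 a single library, siRNA + TTR REVERSIR replicate 1, was well above the other 2 of its group, and the groups did not overlap. Of these genes, 66.4% of the stretches of Rpl35a, 59.6% of Rpl27, 44.0% of Rpl39 and 18.2% of Rpl18 recurred elsewhere in the genome.

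Rpl41, which encodes the shortest ribosomal protein, was the only one of the 77 lower in any comparison by this test, and it was so in 4 of the 5. It had 294, 292 and 295 CPM in siRNA, 280.1, 231 and 258 CPM in scrambled REVERSIR, 312, 274 and 293 CPM in TTR REVERSIR, 254, 269.5 and 276 CPM in siRNA + scrambled REVERSIR and 314, 255 and 269 CPM in siRNA + TTR REVERSIR, against 470.3, 416 and 291 CPM in PBS. PBS replicates 1 and 2 were above every other library, and PBS replicate 3 was among them. The log2 fold change against PBS was −0.42 ± 0.11 (SE) in siRNA (adjusted p = 0.044, edgeR). It was −0.62 ± 0.12 (SE) in scrambled REVERSIR (adjusted p = 0.0261), −0.56 ± 0.11 (SE) in siRNA + scrambled REVERSIR (adjusted p = 0.0194) and −0.49 ± 0.11 (SE) in siRNA + TTR REVERSIR (adjusted p = 0.0434). In TTR REVERSIR it was −0.42 ± 0.11 (SE) and did not pass (adjusted p = 0.0723). Without PBS replicates 1 and 2, the 4 values were 0.02, −0.18, −0.12 and −0.05, and the sign in siRNA turned. Scaled by library totals alone, all genes shifted by 0.29 to 0.33 (log2, median) against PBS, and no ribosomal protein gene, Rpl41 included, passed as lower. Rpl41 has no entry in the annotation of NCBIM37 used here, so that no exon length or level per kb is given, and its start among the sequences above is that of RefSeq on GRCm38.p6.

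**Figure D4:**
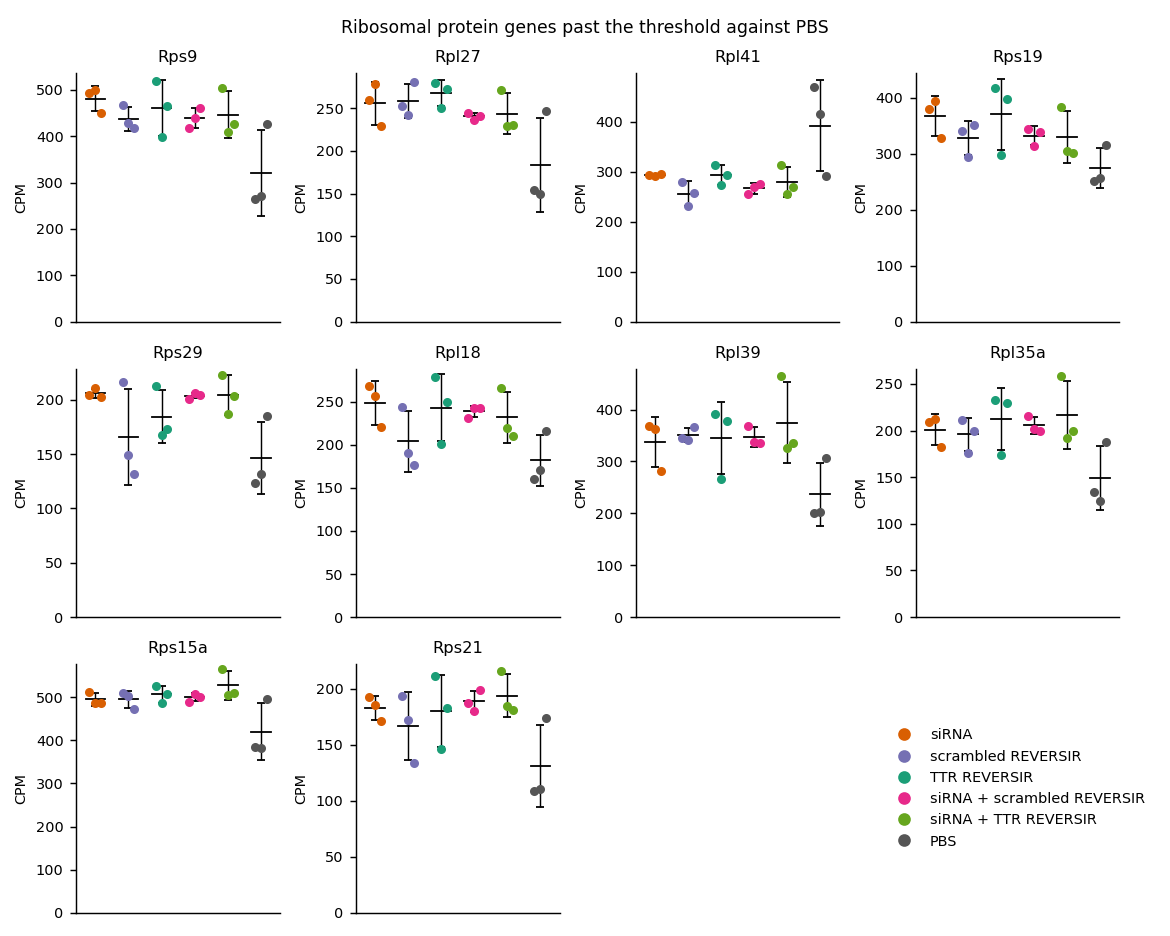
CPM of 10 of the 11 ribosomal protein genes that passed an adjusted p of 0.05 in at least 1 comparison with PBS, by group; points are replicates 1 to 3 from left to right, lines are means and bars the SD (n = 3). The points of PBS replicates 1 and 2 are the highest of all libraries in Rpl41 and the lowest in the other genes shown, and PBS replicate 3 lies within or near the treated libraries in each.

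Counted over all 77 genes, more had a positive than a negative log2 fold change against PBS: 51 in siRNA, 46 in scrambled REVERSIR, 57 in TTR REVERSIR, 49 in siRNA + scrambled REVERSIR and 53 in siRNA + TTR REVERSIR, where 48.7% to 50.5% of all genes were positive. The median log2 fold changes were 0.11, 0.06, 0.12, 0.06 and 0.12 in the same order, where the medians of all genes were within 0.01 of 0. The median absolute log2 fold change was 0.15 to 0.18 in the 77 genes and 0.13 to 0.15 in all genes. It was the larger in the 77 genes in each comparison, from 0.154 against 0.148 in scrambled REVERSIR to 0.178 against 0.132 in siRNA + TTR REVERSIR. All genes were not matched to the 77 for level. Scaled by library totals alone, 76, 72, 75, 76 and 76 of the 77 were positive, beside the shift of all genes given above. Without PBS replicates 1 and 2, the median relative to all genes was 0.00, −0.02, 0.03, −0.01 and 0.03. The medians of the large and the small subunit, whose difference was not tested, were 0.09 and 0.14 in siRNA, 0.07 and 0.05 in scrambled REVERSIR, 0.11 and 0.13 in TTR REVERSIR, 0.05 and 0.10 in siRNA + scrambled REVERSIR and 0.12 and 0.12 in siRNA + TTR REVERSIR. Stalk genes did not pass in any comparison. Rplp0 averaged 806 ± 18.4 CPM in siRNA and 770.5 ± 46.4 CPM in siRNA + TTR REVERSIR, against 659 ± 95.3 CPM in PBS (SD, n = 3 each). Rpsa averaged 1169 ± 18.7 CPM in siRNA and 1116 ± 16.6 CPM in siRNA + TTR REVERSIR, against 1034 ± 114 CPM in PBS. In both genes PBS replicates 1 and 2 were below all other libraries. Rps6 averaged 461 ± 13.8 CPM in siRNA and 462 ± 15.6 CPM in siRNA + TTR REVERSIR, against 528 ± 44.4 CPM in PBS, and did not pass.

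The 6 comparisons without PBS ask what the siRNA did beside either REVERSIR, what each REVERSIR did to cells with the siRNA, and how the sequences of the REVERSIR differed. None of the 77 genes passed an adjusted p of 0.05 in any of them, by edgeR or by DESeq2. In siRNA + scrambled REVERSIR against scrambled REVERSIR, 6 of the 77 had an unadjusted p under 0.05 (3 higher, 3 lower), against 6.22% of all genes, and 0.0179% of all genes passed after adjustment. In siRNA + TTR REVERSIR against TTR REVERSIR there were 3, against 4.44% of all genes, and 0.0% passed after adjustment. In siRNA + scrambled REVERSIR against siRNA there was 1, against 3.72% and 0.0%. In siRNA + TTR REVERSIR against siRNA there were 2, against 5.98% and 0.00897%, and in siRNA + TTR REVERSIR against siRNA + scrambled REVERSIR 0, against 2.17% and 0.00897%. In TTR REVERSIR against scrambled REVERSIR there were 6 (5 higher, 1 lower), against 7.33% and 0.0179%. The median absolute log2 fold change of the 77 genes was 0.05 to 0.09 in these comparisons, where that of all genes, not matched for level, was 0.07 to 0.12. The medians with sign ran from −0.03 to 0.07. Without the filter on low counts edgeR passed 2, 3 and 1 of the 77 in siRNA + scrambled REVERSIR against scrambled REVERSIR, siRNA + TTR REVERSIR against TTR REVERSIR and TTR REVERSIR against scrambled REVERSIR, where 0.204%, 0.174% and 0.209% of 20065 genes passed.

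The genes with the smallest p in these comparisons are given as values. Rps16, a small subunit protein, had 153, 180.0 and 178 CPM in siRNA + scrambled REVERSIR, against 150.3, 117 and 106 CPM in scrambled REVERSIR, a log2 fold change of 0.44 ± 0.12 (SE) (adjusted p = 0.509, edgeR). The groups did not overlap, and the 2 low values came from scrambled REVERSIR replicates 2 and 3. Rpl23a, which lies at the exit of the tunnel, averaged 407 ± 9.22 CPM in siRNA + scrambled REVERSIR and 474 ± 26.5 CPM in scrambled REVERSIR (SD, n = 3 each), with adjusted p = 0.671. Rpl28, a large subunit protein, had 198, 206 and 211 CPM in siRNA + TTR REVERSIR, against 239, 223 and 234 CPM in TTR REVERSIR and 222, 229.6 and 247 CPM in siRNA. Its log2 fold changes were −0.18 ± 0.06 (SE) against TTR REVERSIR, −0.19 ± 0.06 (SE) against siRNA, and −0.16 ± 0.06 (SE) for siRNA + scrambled REVERSIR against siRNA. Neither group overlapped its comparison group, and the adjusted p was 1.00, 0.648 and 1.00. Rpl17 had 610.0, 629 and 595 CPM in TTR REVERSIR, against 705, 729.9 and 685 CPM in scrambled REVERSIR, a log2 fold change of −0.21 ± 0.06 (SE) (adjusted p = 0.438). Rpl22 averaged 223 ± 13.2 CPM in siRNA + TTR REVERSIR and 197 ± 13.1 CPM in siRNA, Rpl26 98.1 ± 1.66 CPM in siRNA + scrambled REVERSIR and 109.6 ± 9.71 CPM in siRNA, and Rpl36a 201 ± 17.2 CPM in siRNA + TTR REVERSIR and 182 ± 9.86 CPM in siRNA + scrambled REVERSIR.

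**Figure D5:**
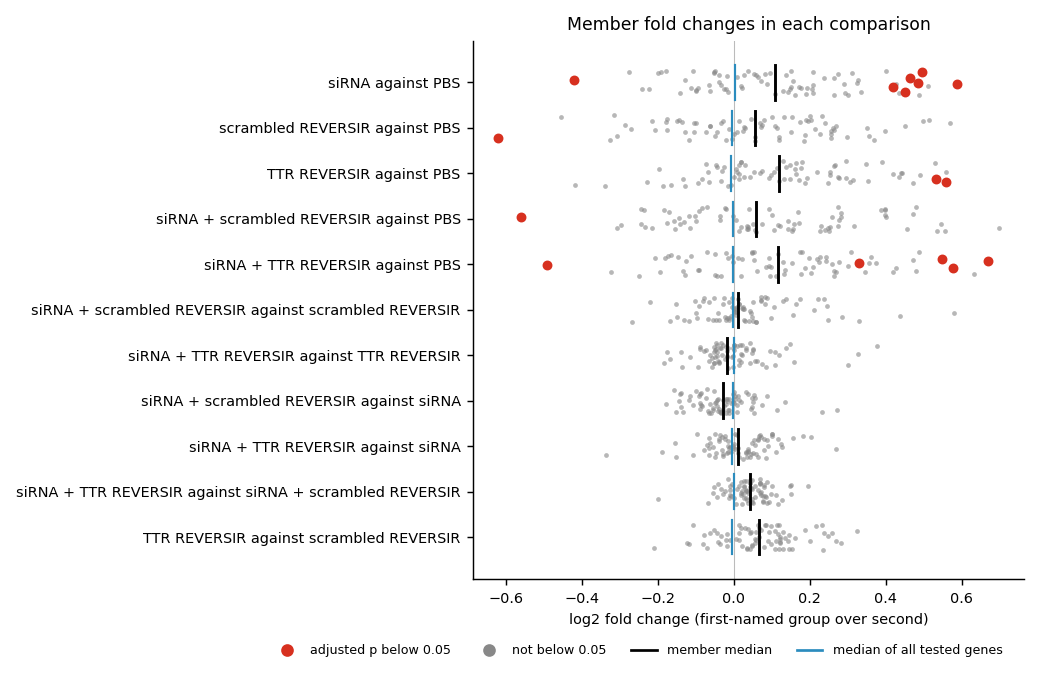
Log2 fold changes of the 77 genes in the 11 comparisons, first-named group over second; red points passed an adjusted p of 0.05 by edgeR, black lines are the medians of the 77 genes and blue lines those of all 11153 genes. The 5 comparisons with PBS are wide, from −0.62 to 0.70, and hold all the red points, and the 6 without PBS are narrower and hold none.

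Other genes of ribosome supply were counted beside them. Of all genes tested, 2.62% passed in siRNA, 0.421% in scrambled REVERSIR and 0.789% in siRNA + TTR REVERSIR, each against PBS. A list in which 1 gene passed is not shown to differ from these shares. Of 22 other mRNAs known to have a TOP tract, 3 passed in siRNA against PBS: Tmsb10, which binds actin monomers, was higher, at 179 ± 16.4 CPM in siRNA and 132 ± 35.2 CPM in PBS (log2 fold change 0.44 ± 0.11), and the helicase gene Eif4a2 (−0.25 ± 0.06) and the poly(A)-binding protein gene Pabpc1 (−0.79 ± 0.22) were lower. Their adjusted p by edgeR were 0.0407, 0.0356 and 0.0486. Snhg5, a small nucleolar RNA host gene, was the only one of the 22 to pass in scrambled REVERSIR, at 19.0 ± 5.32 CPM, against 10.4 ± 1.78 CPM in PBS (adjusted p = 0.0471), and none passed in the other comparisons. Of 45 genes of ribosome assembly, Nmd3, the export adaptor of the large subunit, was the only one to pass, lower in siRNA at 56.5 ± 1.45 CPM, against 69.5 ± 2.60 CPM in PBS (adjusted p = 0.0486). Of 13 genes of RNA polymerase I and its regulators, Max, the partner of Myc, passed as lower in siRNA (−0.54 ± 0.12, adjusted p = 0.0249) and in siRNA + TTR REVERSIR (−0.62 ± 0.12, adjusted p = 0.0225). Of 18 genes of translation control by mTOR, none passed in any of the 11 comparisons. Mtor was at a log2 fold change of −0.29 ± 0.08 in siRNA + TTR REVERSIR against PBS (adjusted p = 0.0661).

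Of 14 targets of p53 that answer ribosomal stress, Ccng1 passed as lower in siRNA (307 ± 7.07 CPM, against 364 ± 25.6 CPM in PBS, adjusted p = 0.0355, edgeR), where 2.62% of all genes passed. Bax, a promoter of apoptosis, passed as higher in TTR REVERSIR (68.4 ± 7.66 CPM, against 53.4 ± 4.73 CPM in PBS, adjusted p = 0.0426, edgeR), where 0.699% of all genes passed. The medians of these lists against PBS ran from −0.10 to 0.07, where those of all genes lay between −0.01 and 0.00. Of the 5 tested ribosomal protein genes outside the name rule that were listed, Rpl22l1, the paralogue of Rpl22, passed as higher in siRNA + TTR REVERSIR, at 125 ± 35.2 CPM, against 77.5 ± 11.5 CPM in PBS (adjusted p = 0.0494, edgeR). In that comparison 0.789% of all genes passed. With PBS replicates 1 and 2 left out, PBS is a single library, and only log2 fold changes are given for these genes of the other lists. The log2 fold changes in siRNA were then 0.08 for Tmsb10, −0.15 for Eif4a2, −0.17 for Pabpc1, −0.34 for Nmd3, −0.17 for Max and −0.17 for Ccng1. The other values were 1.203 for Snhg5 in scrambled REVERSIR, 0.27 for Bax in TTR REVERSIR, and −0.26 for Max and 0.49 for Rpl22l1 in siRNA + TTR REVERSIR. With all 3 PBS libraries, Nmd3 was at −0.29 and Ccng1 at −0.25 in siRNA, and Snhg5 at 0.87 in scrambled REVERSIR. Likewise, Bax was at 0.39 in TTR REVERSIR and Rpl22l1 at 0.71 in siRNA + TTR REVERSIR. The fold changes of Snhg5 and Nmd3 were thus larger in size without the 2 libraries, and those of the other genes smaller.

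The mean log2 CPM of the 77 genes was lowest in PBS replicate 1 (8.16) and highest in siRNA + TTR REVERSIR replicate 1 (8.47). Among 11076 other tested genes, those whose log2 CPM followed it most closely over the 18 libraries were Oaz1, the antizyme that controls polyamine synthesis (Pearson r = 0.921), Trappc6a (r = 0.917) and Suds3 (r = 0.913). Oaz1 ran from 51.2 to 92.6 CPM. The libraries include PBS replicates 1 and 2, and these correlations describe the 18 libraries only.

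The authors' deposited tables, made with DESeq2, list more of the 77 genes at an adjusted p under 0.05: 14 in siRNA (11 higher, 3 lower), 7 in scrambled REVERSIR (4 and 3), 13 in TTR REVERSIR (11 and 2), 9 in siRNA + scrambled REVERSIR (6 and 3) and 7 in siRNA + TTR REVERSIR (5 and 2), each against PBS and with all 3 PBS libraries. Of all genes with an adjusted p in the authors' deposited tables, 8.37%, 3.88%, 2.65%, 6.89% and 3.68% were under 0.05 in the same order. In the authors' deposited tables the median log2 fold change of the 77 genes was 0.08, 0.05, 0.09, 0.05 and 0.10 in that order.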

How the data were processed

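Total RNA of primary mouse hepatocytes was sequenced in 18 libraries, grouped by sample title. STAR, DESeq2 and the build NCBIM37 are named, without versions, per the submitters' processing notes. No source used here names the counting tool or says how it treated strand and reads with several matches. The authors deposited whole-number counts per gene and, per the file headers, DESeq2 tables against PBS with a mean signal over libraries, log2 fold changes with standard errors, Wald scores and p-values.

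From the counts, genes were kept by filterByExpr by group. All libraries were fitted together with edgeR 4.0.16 quasi-likelihood models after TMM scaling, with group as the only term and 12 residual degrees of freedom. P-values were adjusted over 11153 genes in each of 11 comparisons. DESeq2 1.42.0 was an alternative. On counts simulated for siRNA against PBS, the fit passed 59.2% of 49 genes changed 1.5-fold, 86% of 50 changed 2-fold and 0.0928% of 10775 not changed. Each gene was drawn independently, so that shifts shared by many genes of a library, as in PBS replicates 1 and 2, were not simulated. These shares therefore do not measure how often such shifts lead to a call. Log2 CPM used a prior count of 2. Copies were exact 50-base matches in NCBIM37. Genes and lists were chosen with earlier results of these data known. Named were genes past 0.05, or else the 2 with the smallest p per comparison, the 6 highest and 6 lowest per kb, the 4 most and 4 least variable, stalk genes, Rpsa, Rps6, Rpl41, paralogues in the set, the 3 closest other genes, and up to 4 passing genes per list, or else up to 2 as values. Some genes chosen this way are not reported here. Replicate numbers were not used as pairs, as same-numbered libraries did not deviate together in each comparison.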

Additional observations from a re-analysis of the deposited data

Results flagged for a closer look

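Rpl17, a large subunit gene, differed in opposite directions between the libraries with the siRNA and a REVERSIR and those with that REVERSIR alone, depending on which REVERSIR it was. With the scrambled REVERSIR, it had 622, 637 and 629 CPM in siRNA + scrambled REVERSIR, against 705, 729.9 and 685 CPM in scrambled REVERSIR (log2 fold change −0.17). With the TTR REVERSIR, it had 699, 679.9 and 669 CPM in siRNA + TTR REVERSIR, against 610.0, 629 and 595 CPM in TTR REVERSIR (log2 fold change 0.16). The libraries with the siRNA alone had 635, 609 and 631 CPM, against 574, 595 and 671 CPM in PBS, and overlapped. Equally, the log2 fold change of TTR REVERSIR against scrambled REVERSIR was −0.21, and that of siRNA + TTR REVERSIR against siRNA + scrambled REVERSIR was 0.12. None of these passed an adjusted p of 0.05, and the difference between them was not tested. Rpl17 had 85.4% of its 50-base stretches elsewhere in the genome and holds 3 annotated small nucleolar RNA genes.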

How the results depend on the processing

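The number of ribosomal protein genes that passed against PBS depended on the processing, and values are given here in the order siRNA, scrambled REVERSIR, TTR REVERSIR, siRNA + scrambled REVERSIR and siRNA + TTR REVERSIR, where 7, 1, 2, 1 and 5 passed. With library totals alone 47, 25, 44, 45 and 55 passed (34.5%, 14.2%, 25.8%, 31.9% and 36.7% of all genes). Without the filter on low counts 23, 17, 24, 26 and 27 passed (3.37%, 2.11%, 2.48%, 2.81% and 2.92% of all). DESeq2 passed 11, 6, 11, 5 and 6 (5.57%, 2.5%, 2.66%, 3.2% and 2.51% of all genes with an adjusted p). With only the 2 groups compared in the fit, the counts were 0 in all 5, with at most 0.0699% of all genes. Without PBS replicates 1 and 2 together PBS is a single library, so that no counts are given for that fit. Leaving out 1 library at a time gave 0 to 34, 0 to 26, 0 to 31, 0 to 35 and 0 to 38, with the highest counts without PBS replicate 3 (1365, 749, 978, 1142 and 1151 of 11419 genes) and 0 without PBS replicate 1 or without PBS replicate 2. Single treated libraries mattered too: the count in TTR REVERSIR was 16 without its replicate 2 (3.29% of all genes), and in siRNA it was 0 without replicate 1 or 2 (0.542% and 0.105%). The 2 genes that passed in TTR REVERSIR no longer did without its replicate 1 or 3. The same held for the 5 in siRNA + TTR REVERSIR without its replicate 1 or 3. Rpl41 no longer passed in scrambled REVERSIR without replicate 2 or 3, nor in siRNA + scrambled REVERSIR without any 1 of its libraries. A group left with a lone library is assumed to vary like the others. With the replicate number as a block, 8, 2, 1, 1 and 3 passed (2.22%, 0.466%, 0.493%, 0.592% and 0.421% of all), and the numbers are not shown to pair the libraries. DESeq2 size factors, and TMM without the ribosomal protein genes, left all 5 counts as they were.

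The median of the 77 genes relative to all genes was 0.11, 0.06, 0.13, 0.06 and 0.12. Without PBS replicates 1 and 2 together it was 0.00, −0.024, 0.03, −0.009 and 0.03. Leaving out 1 library at a time gave −0.006 to 0.114 in scrambled REVERSIR, with the lowest value without its replicate 1, and 0.033 to 0.119 in siRNA + scrambled REVERSIR. The log2 fold change of Rpl41 in siRNA against PBS was 0.019 without PBS replicates 1 and 2. Without the filter, 2 passed in siRNA + scrambled REVERSIR against scrambled REVERSIR, 3 in siRNA + TTR REVERSIR against TTR REVERSIR and 1 in TTR REVERSIR against scrambled REVERSIR, while the other alternatives kept 0 in the 6 comparisons without PBS. The cause of these changes was not tested. Leaving out PBS replicates 1 and 2 for the genes of the other lists was chosen after seeing the data.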

Other observations

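Other ribosomal protein genes outside the name rule differed in how they stood in PBS replicates 1 and 2. Rpl22l1, whose product can take the place of Rpl22, had 86.9 to 166 CPM in the treated libraries, against 68.8, 73.2 and 90.5 CPM in PBS. Rpl24, which the deposited tables list as Zbtb11, had 444 and 407 CPM in PBS replicates 1 and 2, above every other library, and 341 CPM in PBS replicate 3. Within the set, the level of Rps27l, a target of p53, lay between 196 and 238 CPM in all 18 libraries.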
